A study of Rattus norvegicus with 6 samples.

Results

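The genes described here are Gad1, Gad2 and Slc32a1, which make GABA, the main inhibitory transmitter of the brain, and load it into synaptic vesicles. They were taken as every array probe whose RefSeq transcript belongs to 1 of the 3 genes, which gave 3 of the 4013 named genes and 4 of the 33849 probes: 1 for Gad1 (GE20269), 2 for Gad2 (GE21835 and GE19824) and 1 for Slc32a1 (GE13218). The pars compacta of the substantia nigra was laser-captured from 6 male Sprague Dawley rats aged 5 months, and its RNA was measured with 1 one-colour CodeLink array per rat. The rotenone group held 3 rats (numbers 16, 13 and 9) given the respiratory complex I inhibitor rotenone at 0.5 mg/kg per day for 28 days from a pump under the skin. The solvent group held 3 rats (numbers 11, 7 and 1) whose pumps gave the solvent alone over the same time. Both groups received dimethylsulfoxide, polyethylene glycol and the surfactant Pluronic F-127, and all 6 rats were anaesthetised with ketamine and xylazine for the implantation. The capture took a region and not a sorted cell type, so the RNA mixed dopamine neurons, GABA neurons, glia and vessels.

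Gad1 encodes GAD67, a cytosolic glutamate decarboxylase that supplies most of the GABA of the brain. Gad2 encodes GAD65, the decarboxylase attached to synaptic vesicles, which depends more on added pyridoxal phosphate, the cofactor of both enzymes. Slc32a1 encodes the vesicular transporter VGAT, which exchanges protons for GABA or glycine and so needs the vesicular proton pump. In the nigra these genes mark the GABA neurons, which dominate the neighbouring pars reticulata and lie scattered among the dopamine neurons of the pars compacta. Midbrain dopamine neurons of mice can also release GABA, through the monoamine transporter Slc18a2 and without VGAT.

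Gad1 was above background in every rat, and no probe of the 3 genes passed the test between rotenone and solvent. Its signal was nearly level over the 6 rats, and Slc32a1 was dim and uneven among the rotenone rats. The brighter Gad2 probe lay below every solvent rat in all 3 rotenone rats without passing the test. That probe was above background in only 3 of the 6 rats. The other Gad2 probe was above background in 0 rats, and its groups overlapped. Th and Ddc, enzymes of dopamine neurons, were above background on all 6 arrays, as was the brighter of 2 Slc6a3 (dopamine transporter) probes. So were 12468 of the 33849 probes, and the dimmer Slc6a3 probe was above background on none. Of 12 listed dopamine neuron markers with a named probe, 10 were tested and 1 was below background on every array. The tissue label itself was not tested. The array of rotenone rat 16 stood apart. Over the 16708 probes tested it correlated with the other 5 at 0.931 on average, where each of those reached 0.956 to 0.964. Its median net signal over all probes was 11.7, where theirs were 13.9 to 16.6. The number of arrays limits the precision.

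Net signal is the mean brightness of a spot minus the median of its local background, in linear units, and a spot counted as above background where the scanner did not mark it as near background or masked. Each array also carries 256 negative control spots, whose 95th percentile of net signal lay between 10.8 and 12.2 on the 6 arrays. Fold changes below use a normalized log2 intensity, after a normexp background correction with an offset of 50 and quantile normalization, and the offset draws differences of dim probes towards 0. Levels of different probes were not set against each other, because each probe hybridises with its own efficiency.

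The Gad1 probe had net signals of 906, 996 and 858 in rotenone rats 16, 13 and 9, against 1026, 961 and 1056 in solvent rats 11, 7 and 1. The groups overlapped, and the highest of the 6 values was 1.23-fold the lowest. All 6 spots were above background, at 21.6 to 28.0 times their local background. On the normalized log2 scale the probe stood at 10.01, 10.08 and 9.85 in the rotenone rats, against 10.11, 9.88 and 10.03 in the solvent rats. The group means were 9.98 ± 0.12 with rotenone and 10.01 ± 0.11 with solvent (SD, n = 3 each), a difference of -0.03 ± 0.16 (SE) with a 95% interval from -0.38 to 0.33. That interval spans 0.767-fold to 1.26-fold, so changes of Gad1 within it could not be told from no change with 3 rats per group. It is not adjusted for the 16708 probes tested, so it does not give the size of change that the adjusted test would call. In limma's moderated test the adjusted p was 0.986, and an exact two-sided permutation test over the rats gave p = 0.7, where 0.1 is the smallest that 3 rats against 3 allow.

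The sign of the small Gad1 difference depended on how the values were processed and on which rats were kept. The mean net signal was 920.2 ± 70.0 with rotenone and 1014 ± 48.9 with solvent (SD, n = 3 each), a ratio of 0.907. After the scanner's own division by about the median of each array, the means were 68.7 with rotenone and 64.3 with solvent, a ratio of 1.07. On that scale rotenone rat 16, whose array was the dimmest, stood highest at 77.4, and the other 5 rats lay between 59.8 and 70.0. Median scaling of the log2 values after the normexp correction gave a difference of -0.09.

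Gad1 varied less between rats than most genes. Its SD over the 6 arrays was 0.11 on the normalized log2 scale, and 94.5% of the 1861 probes that had a gene name and were above background on all 6 arrays had a larger one (median 0.24). The nearest profiles by the root mean square difference over the 6 arrays, each centred on its own mean, were those of the adrenergic receptor Adrb3 (0.04), the cytokine Lif (0.04), the potassium channel Kcnh6 (0.05), the cytochrome P450 Cyp1b1 (0.06) and Maged2 (0.06), out of 1713 genes. A measure of this kind favours genes that vary as little as Gad1 does, and these 5 differed between rotenone and solvent by -0.04 to 0.07.

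The brighter Gad2 probe, GE21835, had net signals of 6.54, 9 and 13.3 in rotenone rats 16, 13 and 9, against 16.9, 47.4 and 42.3 in solvent rats 11, 7 and 1. The groups did not overlap, and solvent rats 7 and 1 lay well above the other 4 rats. The scanner placed it above background in rotenone rat 9 and in solvent rats 7 and 1, which is the smallest number of arrays, 3 of 6, that let a probe be tested. Solvent rat 11 was marked near background although its net signal exceeded that of rotenone rat 9, so the mark does not follow the net signal alone. Its net signal passed the 95th percentile of the negative controls in 1 of 3 rotenone rats and in 3 of 3 solvent rats.

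The normalized log2 values of GE21835 were 5.98, 6.01 and 6.12 in the rotenone rats, against 6.18, 6.62 and 6.54 in the solvent rats. The means were 6.04 ± 0.07 with rotenone and 6.45 ± 0.23 with solvent (SD, n = 3 each), and the difference was -0.41 ± 0.17 (SE) with a 95% interval from -0.79 to -0.02. The unadjusted p in limma was 0.0401 and the adjusted p was 0.895. The exact permutation p was 0.1, the smallest the design allows. Of all 16708 probes tested, 2.95% were lower and 1.99% higher with rotenone at an unadjusted p below 0.05, and 9.97% had groups that did not overlap, in either direction. GE21835 was thus 1 of 493 probes lower at that level.

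The size of the Gad2 difference depended on how the background was treated. Mean net signals were 9.62 ± 3.44 with rotenone and 35.5 ± 16.3 with solvent (SD, n = 3 each), a ratio of 0.271, whereas the normalized fold was 0.754. With an offset of 16 the log2 difference was -0.73, and with plain subtraction and a floor of 1 it was -1.62, with adjusted p values in limma of 0.901 for the first and 0.898 for the second. Of 9 general neuron markers tested, 9 had a lower mean in the rotenone rats, 4 of them at an unadjusted p below 0.05 in limma (2.95% of all probes) and 0 after adjustment. Without rotenone rat 16, 7 were lower and 2 higher. Their median difference was -0.36, and -0.22 without that rat. Their summed net signal was 3434 to 6085 in the rotenone rats and 6883 to 7532 in the solvent rats, and 1 listed gene with a named probe was below background on all arrays. These sums are not normalized between arrays, and the brightest probes weigh most in them. On normalized values the groups did not overlap for 2 of the 9 markers, against 9.97% of all probes. The part of neuron content in the Gad2 values was not tested, and in bulk tissue fewer cells of a type and less RNA per cell cannot be told apart.

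The other Gad2 probe, GE19824, did not measure the gene above background in any rat. Its net signals were 15.2, 7.31 and 9.13 in rotenone rats 16, 13 and 9, against 3.62, 18.3 and 7.07 in solvent rats 11, 7 and 1. The groups overlapped throughout, and the net signal passed the 95th percentile of the negative controls in 1 rat of each group. No fold was formed from this probe, since both groups were below background. With every spot near background, the order of its values over the rats was not read. By mean net signal, GE21835 was the brighter Gad2 probe through the solvent rats, at 35.5 against 9.65 for GE19824. With rotenone the means were 9.62 for GE21835 and 10.5 for GE19824.

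**Figure D1:**
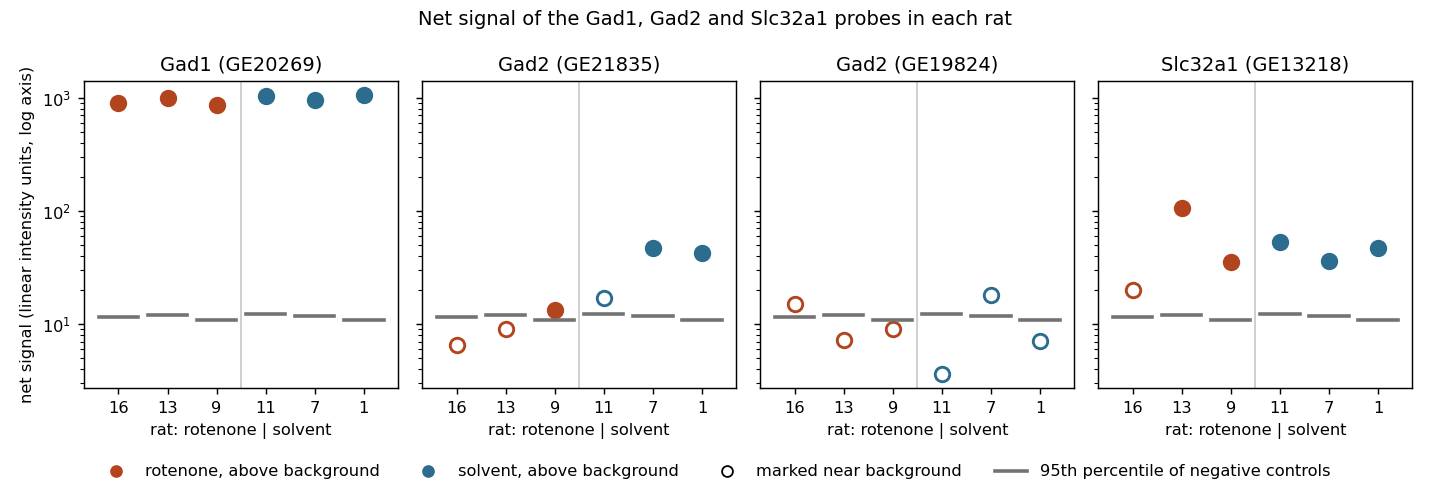
Net signal (linear intensity units on a log axis) of the 4 probes in each rotenone rat (red, left) and solvent rat (blue, right), filled where the scanner placed the spot above background and open where it marked it near background. Grey bars show the 95th percentile of the negative control spots of that array; Gad1 lies between 858 and 1056 in all 6 rats, while both Gad2 probes lie near the bars in most rats.

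The Slc32a1 probe had net signals of 19.9, 106 and 35.7 in rotenone rats 16, 13 and 9, against 53.1, 36.3 and 47.2 in solvent rats 11, 7 and 1. The rotenone rats enclosed the solvent rats, with rat 13 the highest of the 6 and rat 16 the lowest. The highest rotenone value was 5.33-fold the lowest, whereas among solvent rats the ratio was 1.46. The spot was above background in 2 rotenone rats, all but rat 16, and in 3 solvent rats. Its net signal passed the 95th percentile of the negative controls on all 6 arrays.

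The normalized log2 values of Slc32a1 were 6.39, 7.28 and 6.53 in the rotenone rats, against 6.73, 6.46 and 6.61 in the solvent rats. The means were 6.74 ± 0.48 with rotenone and 6.60 ± 0.13 with solvent (SD, n = 3 each), a difference of 0.13 ± 0.23 (SE) with a 95% interval from -0.39 to 0.66, or 0.765-fold to 1.58-fold. The adjusted p in limma was 0.936 and the exact permutation p was 0.9. Rotenone rat 13 decided the sign: without it the difference was -0.14, and without rotenone rat 16 it was 0.31. The spread among the rotenone rats exceeded the difference between the groups.

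None of the 3 tested probes (Gad1, GE21835 of Gad2 and Slc32a1) passed an adjusted p of 0.05, and neither did any other probe on the array, 0% of 16708. At an unadjusted p below 0.05 limma gave 825 probes (4.94%), and the ordinary test without moderation gave 741 and also called 0 after adjustment. In the plot of differences by processing, Gad2 lay below 0 in each of the 14 alternatives in which it was tested. Gad1 and Slc32a1 each had 3 alternatives of the opposite sign out of 17. All alternatives reused the same rats. The groups of GE21835 did not overlap, so leaving out 1 rat had little room to reverse its sign. These counts therefore do not measure how repeatable a difference is.

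**Figure D2:**
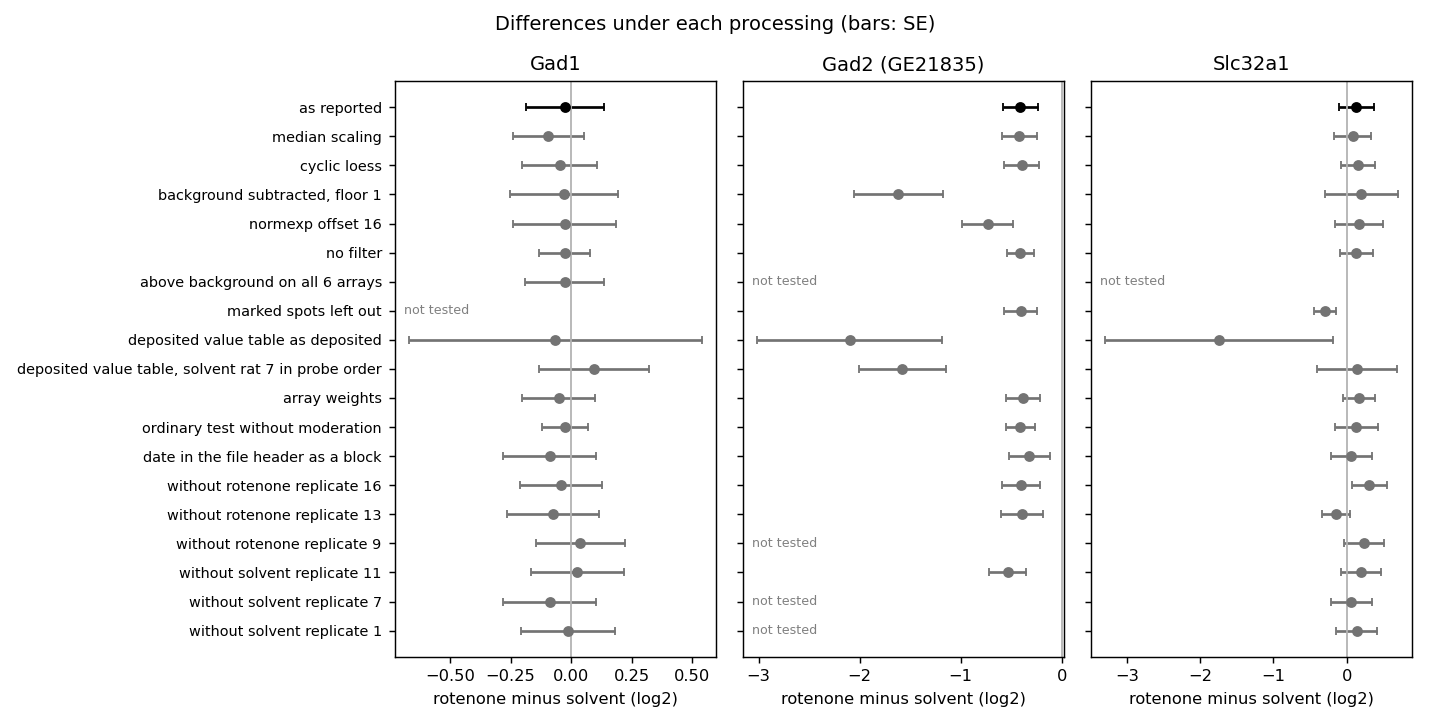
Difference between rotenone and solvent (log2, points with SE bars) for Gad1, the Gad2 probe GE21835 and Slc32a1, as reported (black, top row) and under each alternative processing or with 1 rat left out (grey). Gad1 stays between -0.09 and 0.09, Gad2 runs from -2.10 to -0.32 where the -2.10 comes from the value table with solvent rat 7 beside the wrong probes, and Slc32a1 lies on both sides of 0; "not tested" marks settings in which the probe did not pass the filter.

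The 3 genes did not deviate in the same direction in every rat, and their agreement was not tested. In rotenone rat 9 all 3 lay below their means, at -0.14 for Gad1, -0.12 for Gad2 and -0.14 for Slc32a1. In solvent rat 11 Gad1 deviated by 0.11, Slc32a1 by 0.06 and Gad2 by -0.06. Rotenone rat 13 lay 0.62 above the 6-array mean for Slc32a1, 0.09 above it for Gad1, and deviated by -0.23 for Gad2. Rotenone rat 16 deviated by 0.02 for Gad1, -0.26 for Gad2 and -0.28 for Slc32a1. Solvent rat 7 deviated by 0.38 for Gad2, by -0.20 for Slc32a1 and by -0.11 for Gad1. These are normalized log2 deviations, and those of Gad2 and Slc32a1 come from spots near background in some rats.

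Markers of other cells also differed in rotenone rat 13, where Slc32a1 was highest. Slc17a6, the vesicular glutamate transporter of midbrain glutamate neurons, deviated by 0.47 there, and the astrocyte filament gene Gfap by 0.58. Parvalbumin (Pvalb), the calcium-binding protein of many pars reticulata GABA neurons, deviated by 0.40 and calbindin (Calb1) by 0.31, whereas calretinin (Calb2) deviated by -0.38. Over the 11 tested markers of GABA neurons, rat 13 was above the mean for 5 and below it for 6, with deviations from -0.69 to 0.40. Lower values stood beside them for the dopamine side, at -0.84 for Slc18a2, -0.39 for Ddc and -0.23 for Th. The brighter Slc6a3 probe lay nearer its mean, at -0.06. Over the 10 tested dopamine neuron markers, rat 13 was above the mean for 2 and below it for 8, with deviations from -0.84 to 0.13. As whole lists, 10 dopamine neuron markers had a median deviation of -0.19 in this rat, 9 astrocyte markers 0.20 and 11 markers of GABA neurons -0.00377. The median was 0.24 for 6 vessel markers, 0.02 for 4 microglial, 0.01 for 9 oligodendrocyte and -0.07 for 9 general neuron markers. The summed net signal of the dopamine list was 21479 to 32168 in the rotenone rats, lowest in rat 13, and 22848 to 31412 in the solvent rats. The astrocyte list summed to 14767 to 16192 with rotenone and 13986 to 15623 with solvent, and the GABA neuron list to 3006 to 3630 with rotenone and 2718 to 3742 with solvent. Of genes with a named probe, 1 of the dopamine, 2 of the astrocyte and 0 of the GABA neuron list were below background on every array. The part of tissue makeup in the Slc32a1 value was not tested.

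**Figure D3:**
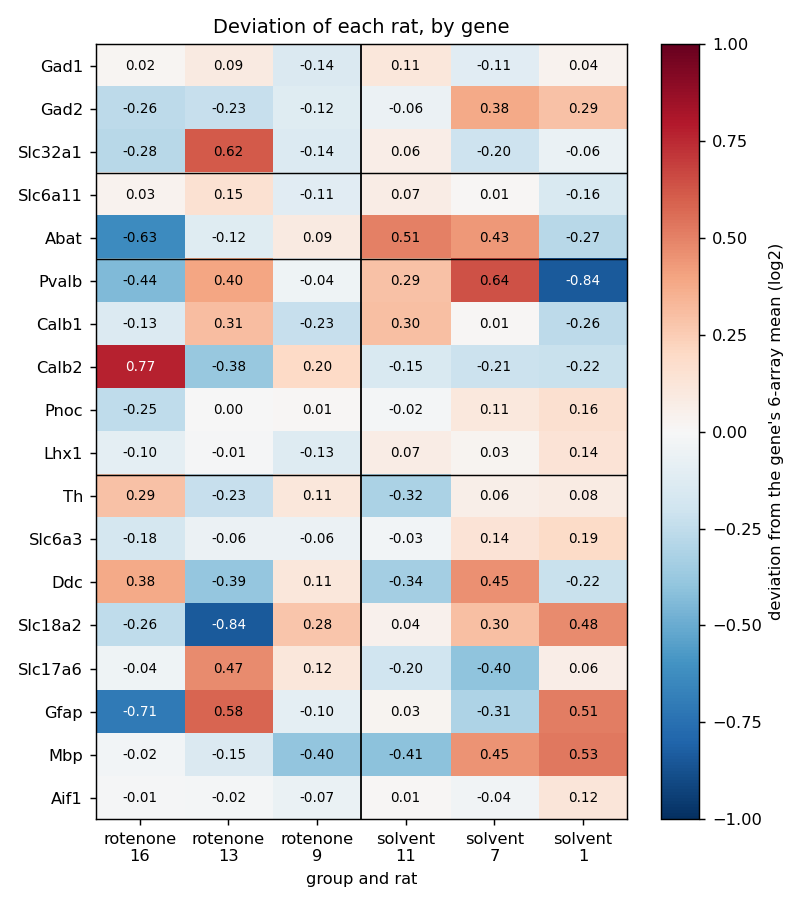
Deviation of each rat from the mean of the 6 arrays (normalized log2, colour and printed value) for the 3 genes, for GABA uptake and breakdown, for markers of GABA neurons, and for markers of dopamine neurons, glutamate neurons and glia, with rotenone rats left of the line. Gad1 stays within -0.14 and 0.11, Slc32a1 is at 0.62 in rotenone rat 13, and Slc18a2 is at -0.84 in the same rat.

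The rest of the GABA pathway was described through 7 lists with 94 genes, of which 63 had a named probe and 40 were tested. None of the 40 passed the adjusted test or an unadjusted p of 0.05 (smallest 0.0986, limma), with 19 higher and 21 lower with rotenone and a median difference of -0.00672, against a median of 0.00892 and 48.3% lower over all tested probes. The groups did not overlap for 2 of the 40 genes, or 5%, against 9.97% of all probes. Medians of the single lists depended on scale and on rotenone rat 16. With median scaling, which moved the median of all probes to -0.06, the medians were -0.01 for uptake and breakdown, -0.10 for glutamate supply, -0.11 for receptors and -0.11 for GABA neuron markers. Without rotenone rat 16 they were 0.05, -0.09, 0.02 and 0.01 in the same order. The adjusted p of the genes named from these lists lay between 0.895 and 0.986 in limma.

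Among genes that remove GABA after release, Slc6a11, the glial transporter GAT3, averaged 6.52 ± 0.13 with rotenone and 6.47 ± 0.12 with solvent (SD, n = 3 each) and differed by 0.05 (95% interval -0.31 to 0.41). Abat, the mitochondrial transaminase that breaks GABA down, had net signals of 23.5, 74.3 and 88.5 in rotenone rats 16, 13 and 9, against 144, 142 and 65.04 in solvent rats 11, 7 and 1. The Abat groups overlapped through solvent rat 1, and the difference was -0.44 (interval -1.01 to 0.12), and -0.24 without rotenone rat 16. Slc6a12 and Slc6a13, transporters found mainly outside neurons, did not reach background on enough arrays for a test, and Aldh5a1, the next enzyme of the breakdown, had no named probe.

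Supply of glutamate, the substrate of both decarboxylases, showed no call among 7 tested genes (4 higher, 3 lower, median 0.02). Glud1, which interconverts glutamate and oxoglutarate, differed by -0.54 (95% interval -1.30 to 0.23), and by -0.11 without rotenone rat 16. The glutamine exporter of glia, Slc38a3, differed by -0.36 (-0.14 without that rat), and glutamine synthetase (Glul), of astrocytes, by 0.26. Of the genes that supply pyridoxal phosphate, Pdxk had the only named probe and was not tested.

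The vesicular proton pump, which powers VGAT and the other vesicular transporters, had 6 tested genes with 2 higher and 4 lower and a median of -0.19. Its subunit Atp6v1f differed by -0.61, Atp6v0a1 by -0.21 (-0.04 without rotenone rat 16) and Atp6v0c, of the membrane ring, by 0.20 (0.01 without it). Rotenone rat 16 deviated by -0.42 as the median of this list, against 0.19 in rat 13 and -0.02 in rat 9, and without rat 16 the median difference was -0.00692 and that of Atp6v1f -0.14. The median of this list thus rested on 1 array.

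GABA receptors, their anchors and the chloride transporters that set their direction had 12 tested genes, 5 higher and 7 lower, with a median of -0.00672. The metabotropic receptor gene Gabbr1 differed by -0.38 (95% interval -0.84 to 0.08) without overlap between groups, and the receptor subunit gene Gabrq by 0.30 (interval -0.15 to 0.75). Without rotenone rat 16 the differences were -0.19 for Gabbr1 and 0.09 for Gabrq. For glycine, the other substrate of VGAT, the neuronal transporter gene Slc6a5 was the only one tested of 5 with a named probe. It differed by 0.06 (interval -0.31 to 0.44), and by -0.06 without rotenone rat 16.

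Markers of GABA neurons other than the 3 genes had a median difference of -0.02. Of 23 listed, 11 had a named probe and were tested, 5 higher and 6 lower. Pvalb averaged 9.43 ± 0.42 with rotenone and 9.49 ± 0.77 with solvent (SD, n = 3 each) and differed by -0.06, with a 95% interval from -0.85 to 0.73, and by 0.15 without rotenone rat 16. Its net signal was 402, 843 and 618 in rotenone rats 16, 13 and 9, against 793, 1119 and 371 in solvent rats 11, 7 and 1. The groups overlapped, and Pvalb varied over the rats far more than Gad1. Calb1 differed by -0.04 (0.02 without rotenone rat 16) and Calb2 by 0.39, although both proteins also occur in part of the dopamine neurons. Calb2 was highest in rotenone rat 16, at a deviation of 0.77, and differed by 0.10 without that rat. The transcription factor gene Lhx1 differed by -0.16 without overlap, and the neuropeptide precursor Pnoc by -0.16 (-0.08 without rotenone rat 16).

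Other cell types gave the setting of these values. Of 10 dopamine neuron markers tested, 4 were higher and 6 lower with rotenone (median -0.18). Of these, 2 were lower at an unadjusted p below 0.05 in limma, against 2.95% of all probes tested. Th, Slc6a3, Ddc and Slc18a2 were not among those 2. The difference was 0.12 for Th (0.00581 without rotenone rat 16), -0.20 for the dopamine transporter gene Slc6a3, 0.07 for Ddc (-0.10 without rotenone rat 16) and -0.54 for Slc18a2 (95% interval -1.13 to 0.05), which also carries GABA into vesicles in dopamine neurons of mice. It was 0.36 for Slc17a6 at its brighter probe and 0.00668 at the dimmer one. Gfap differed by -0.15 (0.16 without rotenone rat 16), the myelin gene Mbp by -0.38 and the microglial gene Aif1 by -0.06, each with an interval that included 0. As lists, 9 astrocyte markers had a median difference of 0.02 (0.18 without rotenone rat 16), 9 oligodendrocyte markers -0.21 (7 lower, 1 of them at an unadjusted p below 0.05), 4 microglial markers -0.11 and 6 vessel markers 0.04 (1 higher at that level). No marker passed the adjusted test in limma.

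**Figure D4:**
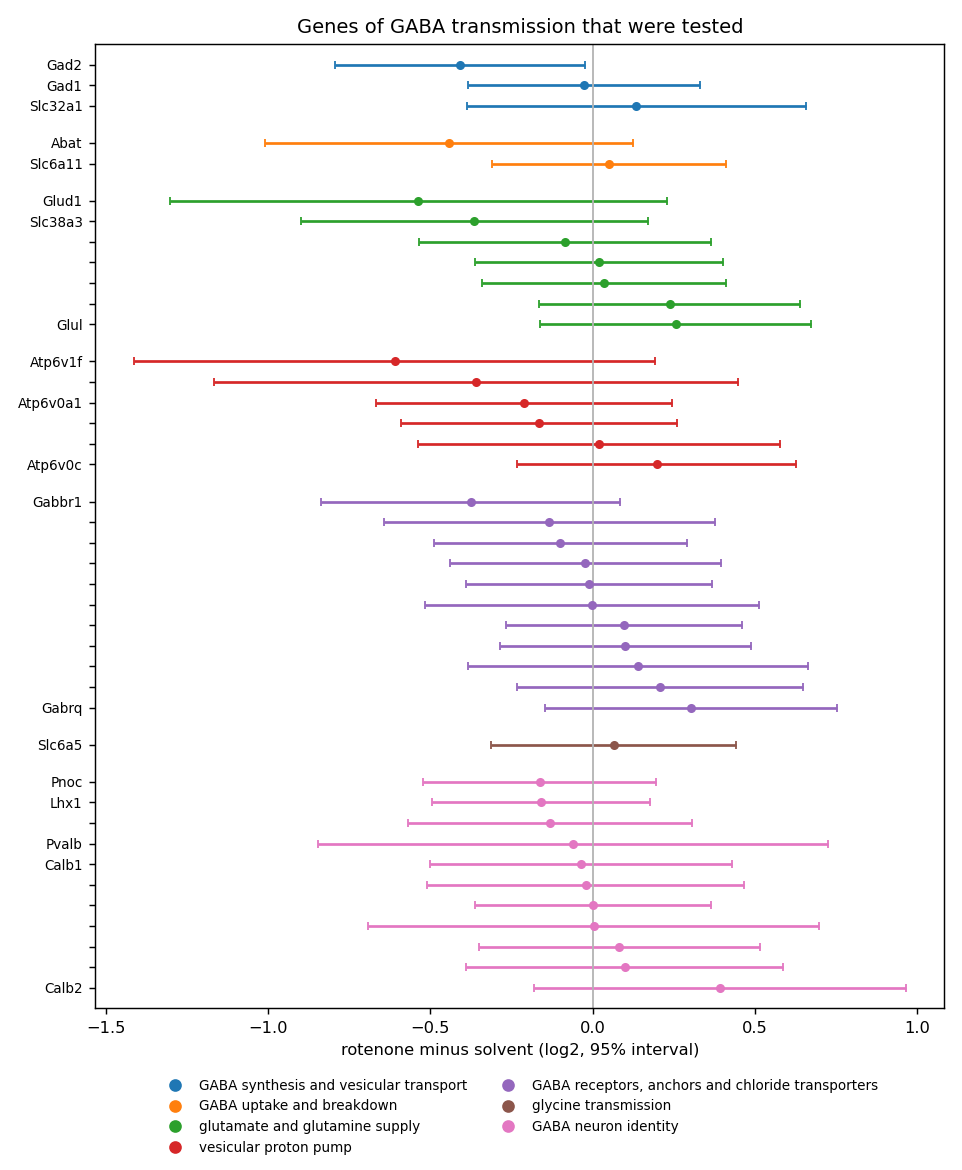
Difference between rotenone and solvent (log2, points with 95% intervals from limma) for tested genes of GABA synthesis and vesicular transport, uptake and breakdown, glutamate supply, the proton pump, receptors, glycine transmission and GABA neuron identity, 1 probe per gene, with names beside the genes given in the text. Of the 41 intervals drawn only that of Gad2 leaves out 0, at -0.79 to -0.02, without adjustment for multiple tests.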

How the data were processed

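Total RNA (2 µg) of each rat was amplified, biotin-labelled and hybridised to 1 CodeLink array, per the labels' protocols. The deposited scanner files hold linear intensity values per spot: the mean, the local background, their difference, and that difference divided by about the array median, as the authors' value table also gives it. In that table the column of solvent rat 7 matched its scanner file at 0.898% of probes, against 100% for the others. Its scale is linear, uncentred after division, with column medians of 0.994 to 1.00, and 1-colour values carry no direction. Scanner software: not given in the sources used here.

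Groups came from the labels; each rat is 1 replicate. Probes were named by unversioned accession through a RefSeq table of assembly GRCr8 (4675 probes, 4013 genes); probes of other accessions are unnamed here. Spot mean and background median were corrected with normexp (offset 50), control spots removed, log2 values quantile-normalized and every spot kept, since the scanner's irregular mark covered nearly all bright probes (97.9% to 99.0% over a net signal of 100). Probes above background on at least 3 of 6 arrays (16708) were tested two-sidedly in limma 3.58.1 under R 4.3.3, and p values were adjusted over all of them by Benjamini-Hochberg; the code was tested on simulated data. A gene's probe in a list is the one with the highest mean. Named genes are the 3 genes, those of GABA uptake and breakdown, up to 3 with the lowest p of each other pathway list, 10 cell markers fixed by name, and the 5 profiles nearest to a member above background on all 6 arrays. For 2 genes that this rule names, values are not reported here. The members, lists and settings were chosen with earlier results of these data known.

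Alternatives were median scaling, cyclic loess, plain subtraction, an offset of 16, no filter or all 6 arrays, marked spots left out, the value table as deposited and in probe order, array weights, no moderation, the header date as a block, and each rat left out.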

Additional observations from a re-analysis of the deposited data

How the results depend on the processing

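The count of probes called was 0 as reported and under the other settings except 2: leaving out marked spots gave 2 called of 4283 tested, and with 1 rat left out the count lay between 0 and 3, the 3 arising without solvent rat 1. None of those calls was Gad1, Gad2 or Slc32a1. Gad1 changed sign in the deposited value table with solvent rat 7 in probe order (0.0923), and lay between -0.0889 and 0.0385 with 1 rat left out, above 0 without rotenone rat 9 (0.0385) or solvent rat 11 (0.0243). It gave no value with marked spots left out, since all its spots carry the irregular mark. Slc32a1 changed sign with marked spots left out (-0.30), which drops rotenone rat 13, and in the value table as deposited (-1.74), where the column of solvent rat 7 stands beside the wrong probes; with 1 rat left out it lay between -0.14 (without rotenone rat 13) and 0.31. Gad2 was below 0 in the alternatives that tested it, from -1.62 to -0.32, and at -2.10 in the value table as deposited, which misplaces the same column (-1.58 in probe order); its adjusted p values were 0.626 or more, and it could not be tested without rotenone rat 9, solvent rat 7 or solvent rat 1, which left it above background on too few arrays. Neither Gad2 nor Slc32a1 was tested where a probe had to be above background on all 6 arrays. Solvent rat 7 alone has another date in its file header, so the fit with that date as a block (Gad1 -0.09, Gad2 -0.32, Slc32a1 0.07) leaves this rat without influence on the difference. No paired analysis was possible because the groups share no replicate numbers. Spots of GE21835 stood at 1.16 to 2.28 times and those of Slc32a1 at no more than 3.64 times their local background, which limits both.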
